A study of Mus musculus with 27 samples.

Results

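The 10 genes examined belong to the Notch pathway and are the receptors Notch1, Notch2, Notch3 and Notch4, the ligands Jag1 and Jag2, and Hes1, Hey1, Heyl and Nrarp, which are targets of the pathway. They are 10 of 24454 genes in the table, picked by name, and Jag1 was chosen by its response to TGFβ. All 10 were listed, 9 passed the filter on low values (at least 1 CPM in at least 2 libraries), and Heyl did not. CPM is the number of reads of a gene per 1000000 reads assigned to genes.

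RNA was sequenced from 9 cell lines that had been grown from thoracic mammary tumours of female MMTV-PyMT mice (FVB/N) aged 12 weeks, in which the MMTV promoter drives the polyoma middle T oncogene mainly in mammary epithelium. The genotypes concern Bcl9 and Bcl9L, coactivators that bridge β-catenin and Pygopus. The ΔHD1 allele lacks Pygopus binding and the ΔHD2 allele lacks β-catenin binding. The fl lines paired the mutant allele with a floxed wild-type copy. The recombined lines, ΔHD1/- and ΔHD2/-, had lost that copy to an adenovirus encoding Cre and GFP and were sorted for GFP, so a mutant allele and the oncogene were present in all 9 lines. Each line received no cytokine (4 days), Wnt3a at 100 ng/ml (3 days) or TGFβ at 2 ng/ml (4 days), which gave 27 libraries with 2 lines per genotype and 3 lines of ΔHD2/-. Replicates are therefore cell lines, and Wnt3a was compared with a control of another labelled duration. In the study Wnt3a served to activate canonical Wnt signalling and TGFβ to induce an epithelial-mesenchymal transition.

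Libraries held 21.86 to 33.69 M reads, and 3 reads, the upper limit that a count of 0 allows, were worth 0.089 to 0.137 CPM. Bcl9 (33.2 to 104 CPM in ΔHD1 and 32.4 to 55.2 CPM in ΔHD2 libraries) and Bcl9l (70.7 to 346 and 109 to 255 CPM) were read in every library, and their totals do not separate mutant from wild-type alleles. Axin2, a Wnt target, was higher with Wnt3a in 9 of 9 lines (median 31.1-fold), and Fn1, a TGFβ target that encodes fibronectin, was higher with TGFβ in 9 of 9 lines (median 3.76-fold). Some of the epithelial markers went against the label in 2 lines. In untreated ΔHD1/fl line 2 and ΔHD1/- line 2, Cdh1 was at 0.522 and 0.237 CPM and Epcam at 0.0746 and 0 CPM, while Pdgfra was at 416 and 629 CPM and Pdgfrb at 762 and 473 CPM. In the 7 other untreated lines Cdh1 was at 606 CPM or more and Epcam at 263 CPM or more. The same 2 lines had the lowest Krt18 (0.373 and 2.23 CPM, against 163 CPM or more in the others) and the lowest Krt14 (356 and 223 CPM, against a median of 1450 CPM over all lines), and held Col1a1 at 659 and 2600 CPM and Col1a2 at 202 and 1720 CPM. Trp63 was at 180 and 75.8 CPM (median 30.9 CPM), and Krt8 stood at 0.336 CPM in the former and 1090 CPM in the latter. Pdgfrb was also at 193 CPM in ΔHD1/- line 1, which held Cdh1 at 817 CPM. Lines 2 and 3 of ΔHD2/- were the most alike, with a correlation across genes of 0.993 without cytokine, against 0.798 to 0.956 in the 35 other pairs of lines. Between them 54.1% of genes differed by more than counting noise, against 68.6% or more in the other pairs. With Wnt3a and TGFβ this share was 35.6% and 39.8% (correlation 0.997 and 0.996). Lines 2 and 3 were counted as separate lines, and whether they are independent was not tested.

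Notch receptors are single-pass membrane proteins that bind Delta and Jagged ligands on neighbouring cells. Ligand binding exposes the receptor to cleavage by ADAM proteases and then γ-secretase, and the freed intracellular domain enters the nucleus, where with RBPJ and Mastermind proteins it switches on repressors of the Hes and Hey families. Nrarp, another target, limits the pathway by promoting loss of the intracellular domain. In the mammary gland Notch signalling acts in the choice between luminal and basal fates, and Notch1 and Notch4 were found as insertion sites of the mouse mammary tumour virus. Jag1 is a known target of TGFβ in epithelial cells.

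The promoters of Jag1, Notch1 and Notch4 are shown because the TGFβ results turn on these 3 genes. Each is the 250 bases before a RefSeq transcription start (RefSeq, GRCm38.p6), and capitals mark the SMAD box CAGAC or its reverse complement GTCTG, the short element that SMAD proteins bind. The Jag1 window is chr2:137116521-137116770 (minus strand), the Notch1 window chr2:26503823-26504072 (minus strand) and the Notch4 window chr17:34564045-34564294 (plus strand). The Notch4 window runs past the gene start given below (34564286). The last bases of all 3 windows overlap an annotated GENCODE transcript.
Jag1: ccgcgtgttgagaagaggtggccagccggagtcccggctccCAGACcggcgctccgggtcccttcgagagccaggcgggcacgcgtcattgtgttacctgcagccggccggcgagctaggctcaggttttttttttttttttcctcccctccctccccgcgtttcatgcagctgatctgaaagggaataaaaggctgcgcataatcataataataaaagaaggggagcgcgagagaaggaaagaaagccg
Notch1: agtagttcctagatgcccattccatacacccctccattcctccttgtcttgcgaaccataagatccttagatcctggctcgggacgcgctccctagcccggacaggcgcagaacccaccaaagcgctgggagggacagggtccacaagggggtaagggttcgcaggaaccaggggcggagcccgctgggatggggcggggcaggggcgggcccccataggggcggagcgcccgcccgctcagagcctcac
Notch4: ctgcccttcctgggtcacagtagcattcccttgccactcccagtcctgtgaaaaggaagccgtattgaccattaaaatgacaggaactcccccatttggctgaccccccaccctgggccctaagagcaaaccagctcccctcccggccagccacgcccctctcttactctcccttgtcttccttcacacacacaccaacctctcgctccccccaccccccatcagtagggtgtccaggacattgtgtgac
Jag1 held 1 SMAD box, on the strand printed, 209 bases before the start, and Notch1 and Notch4 held none. Of the 7 members listed in the promoter table, Nrarp held 4 SMAD boxes and Notch3 held 2, and the windows of Notch2 and Jag2 held none. The Jag2 window lies inside the span of Jag2 given below, and the Notch3 window overlaps that of Notch3. None of the 7 windows held the RBPJ core TGGGAA (reverse TTCCCA) or the TCF core CTTTGA (reverse TCAAAG), searched on both strands. Over all 32851 promoter windows of 250 bases, 42.2% held a SMAD box, 21.6% an RBPJ core and 13.8% a TCF core. These matches are letters in a window and describe no binding. Hes1, Hey1 and Heyl had no entry in the promoter table.

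Without cytokine, Notch1 and Notch2 were the most abundant receptors, and Notch3 and Notch4 were low in most lines. Per kilobase of exon, which allows genes to be compared, the median level of Notch1 over the 9 untreated lines was 36.9 CPM per kb and that of Notch2 was 33.8 CPM per kb. Hes1, a repressor that keeps progenitors undifferentiated, followed at 26.0 CPM per kb. Jag1 was at 4.39, Nrarp at 3.25 and Hey1 at 2.08 CPM per kb. Jag2 was at 0.976, Notch3 at 0.736 and Notch4 at 0.235 CPM per kb. The ranges over lines of neighbouring genes in this order overlapped at every step down to Notch4, so the order is one of medians. Heyl had at most 2 reads in any library and was not detectable at this depth.

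**Figure D1:**
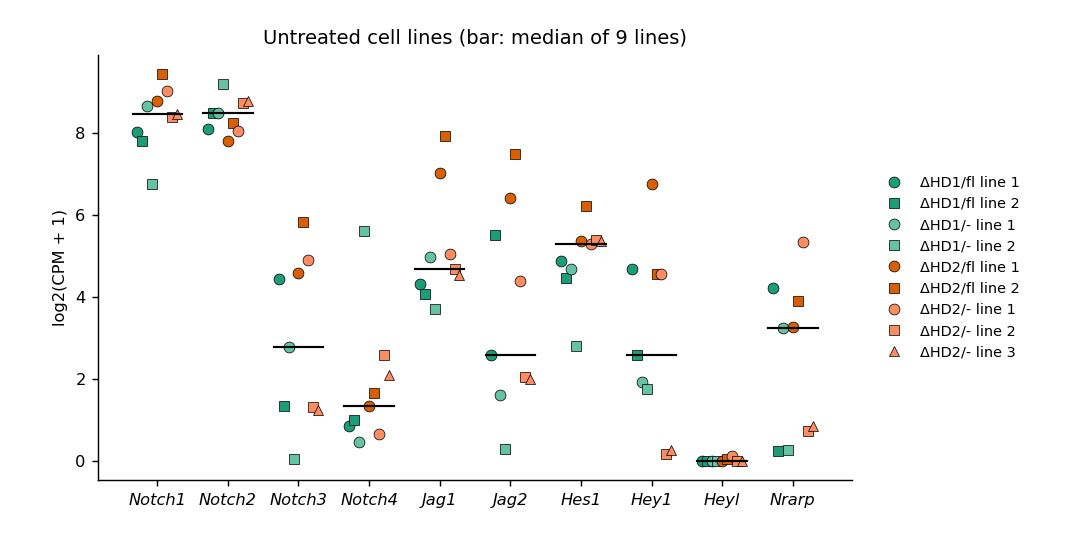
Levels of the 10 genes as log2(CPM + 1) in the 9 untreated cell lines. Points are lines (colour for genotype, symbol for replicate number) and bars are medians. Notch1 and Notch2 lie at 106 CPM or more in all lines, while Jag2, Hey1, Notch3 and Nrarp spread from near 0 to 39.3 CPM or more.

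The receptors differed in how much they varied between lines. Notch2 was the most even, from 221 CPM in ΔHD2/fl line 1 to 578 CPM in ΔHD1/- line 2, an SD of 0.43 on the log2(CPM + 1) scale against a median SD of 0.42 over the 13270 genes tested. Notch1 ranged from 106 CPM in ΔHD1/- line 2 to 688 CPM in ΔHD2/fl line 2 (SD 0.78). Notch3, a receptor known from vascular smooth muscle and luminal progenitors, ranged from 0.0297 CPM (1 read) in ΔHD1/- line 2 to 55.7 CPM in ΔHD2/fl line 2 (SD 2.05), and 96.0% of genes tested had a smaller SD. Notch4, a receptor known from endothelium, was at 0.385 to 5.00 CPM in 8 lines and at 47.6 CPM in ΔHD1/- line 2, one of the lines with little Cdh1.

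The ligands were highest in ΔHD2/fl lines. Jag1 stood at 129 and 243 CPM there and at 11.9 to 32.2 CPM in the 7 other lines. This split of lines was noticed in the data, and the share of all genes that separate these lines is not given here. Jag2 stood at 83.5 and 178 CPM in ΔHD2/fl lines, at 44.3 CPM in ΔHD1/fl line 2 and at 0.237 to 19.8 CPM in the others. Its SD of 2.45 exceeded that of 98.0% of genes tested. Jag1 made up a median 77.6% of the summed Jagged level per kilobase, with a range from 24.5% in ΔHD1/fl line 2 to 97.9%.

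Among the targets, Hes1 was read in every line, from 6.03 CPM in ΔHD1/- line 2 to 73.1 CPM in ΔHD2/fl line 2 (SD 0.94). Hey1, a repressor with roles in vessels and bone, was at 106 CPM in ΔHD2/fl line 1 and at 22.6 to 24.7 CPM in 3 other lines. It was at 2.40 to 5.03 CPM in 3 lines, and at 0.135 and 0.209 CPM in ΔHD2/- lines 2 and 3. Its SD over all lines was 2.23. Nrarp was high and low in separate sets of lines, at 8.38 to 39.3 CPM in 5 lines and at 0.186 to 0.795 CPM in 4 (SD 1.93). The 4 lines low in Nrarp (ΔHD1/fl line 2, ΔHD1/- line 2, and ΔHD2/- lines 2 and 3) also held Notch3 at 1.53 CPM or less, and the 5 others held Notch3 at 5.90 CPM or more. Of these 4 lines 2 were those low in Cdh1 and 2 were the pair most like each other.

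Jag1 was higher with TGFβ in 9 of 9 lines, by 6.5-fold to 47.9-fold with a median of 18.9-fold, and its TGFβ libraries did not overlap the untreated ones. Of all genes tested 5.41% were higher in every line, and the share of genes without overlap is not given here. In bulk RNA, fewer cells of a type and less RNA per cell cannot be told apart. In ΔHD1/fl lines it went from 19.0 and 15.8 CPM to 479 and 256 CPM, and in ΔHD1/- lines from 30.1 and 11.9 CPM to 599 and 276 CPM. In ΔHD2/fl lines it went from 129 and 243 CPM to 1050 and 1577 CPM. In ΔHD2/- lines 1, 2 and 3 it went from 32.2, 24.6 and 22.2 CPM to 1542, 315 and 420 CPM. The lowest level with TGFβ (256 CPM) lay just above the highest without it (243 CPM). The mean log2 fold change over genotypes was 3.98 ± 0.32 (SE), and by genotype it was 4.26 (ΔHD1/fl), 4.35 (ΔHD1/- lines), 2.86 (ΔHD2/fl) and 4.45 (ΔHD2/- lines). Jag1 was selected on this response, so these values are a description with no test. The smallest change was found in the lines that had the most Jag1 before TGFβ, and the ΔHD2/fl libraries with TGFβ still held more of it than all others but ΔHD2/- line 1. With the ΔHD1 lines low in Cdh1 left out, the mean was 4.04.

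**Figure D2:**
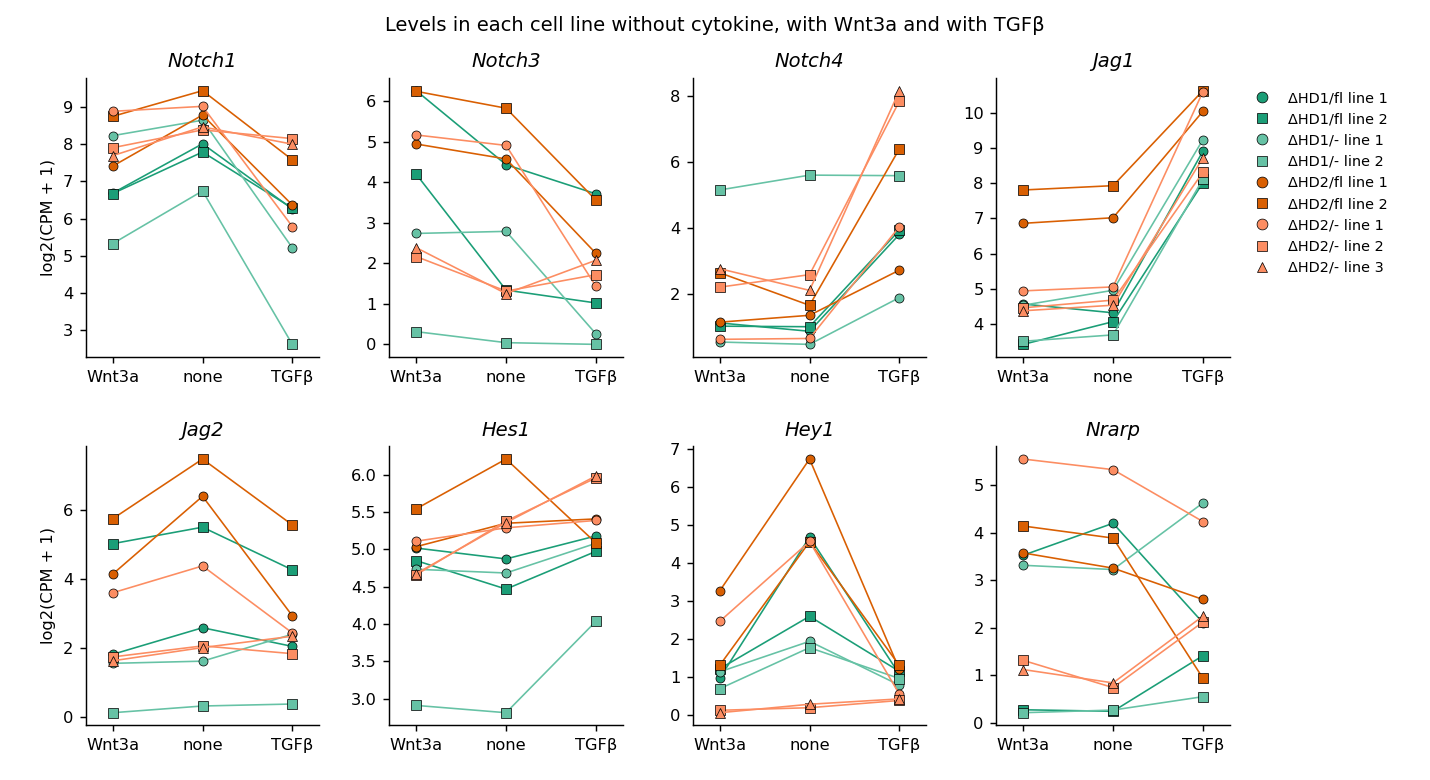
Levels of 8 genes as log2(CPM + 1) in each cell line with Wnt3a, without cytokine and with TGFβ, 1 panel per gene with its own axis. Lines join the 3 libraries of a cell line. Jag1 is higher with TGFβ and Notch1 lower in 9 of 9 lines, Notch4 is higher in 8 of 9, and Hey1 lies at 1.46 CPM or less with TGFβ.

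Of the 8 other members tested for the mean TGFβ response, 3 were called, that is, had an adjusted p no higher than 0.05 and at least a doubling or halving (log2 fold change of 1 in either direction). Notch4 rose, and Notch1 and Hey1 fell. Over all genes tested 5.42% were called, 1.86% higher and 3.56% lower. The same 3 were called without the 2 lines low in Cdh1, and with each line left out in turn 1 to 3 were called. All genes together had a median log2 fold change of -0.16, which became -0.02 after median-of-ratios scaling, which turned the 247 higher and 472 lower calls into 317 and 316, and under which the same 3 members were called. The p-values measure the spread between these cell lines.

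Notch1 fell in 9 of 9 lines, by 1.18-fold to 20.4-fold with a median of 3.63-fold. In ΔHD1/fl lines it went from 256 and 219 CPM to 75.6 and 76.7 CPM, and in ΔHD1/- lines from 397 and 106 CPM to 36.2 and 5.18 CPM. In ΔHD2/fl lines it went from 437 and 688 CPM to 81.4 and 189 CPM. In ΔHD2/- line 1 it went from 514 to 54.2 CPM, and in lines 2 and 3 from 331 and 351 CPM to 282 and 254 CPM, the smallest changes. The ranges with and without TGFβ overlapped between lines. Over genotypes the mean log2 fold change was -2.21 ± 0.46 (SE, adjusted p 0.00362 by limma), and 15.7% of all genes tested were also lower in every line. Luminal epithelial markers differed in both directions. Cdh1 was lower with TGFβ in 8 of 9 lines, Epcam was lower in 5 and higher in 3, and Krt19 lower in 3 and higher in 2. Krt8 and Krt18 were each higher in 7 lines and lower in 2. Basal epithelial markers also differed. Krt14 (median 1450 CPM without and 567 CPM with TGFβ) and Trp63 (30.9 and 1.64 CPM) were lower with TGFβ in 9 of 9 lines, Krt5 in 8 and Oxtr in 7, while Acta2 was higher in 7, and the sum of these 5 markers was 304 to 15700 CPM without and 86.8 to 2960 CPM with TGFβ. Krt14 differed least in ΔHD2/- lines 2 and 3 (1.41-fold and 1.09-fold), as Notch1 did, and the part of these markers in the Notch1 values was not tested. Exons of Notch1 overlap those of the antisense genes 0610009E02Rik and Gm13568, and the strand setting used in counting is not given in the sources used here.

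Notch4 rose with TGFβ, with higher values in 8 of 9 lines. In ΔHD1/fl lines it went from 0.823 and 1.01 CPM to 13.0 and 14.2 CPM. In ΔHD1/- line 1 it went from 0.385 to 2.70 CPM, and in line 2, where it was highest before, it was at 47.6 CPM without and 47.0 CPM with TGFβ. In ΔHD2/fl lines it went from 1.55 and 2.15 CPM to 5.59 and 83.4 CPM. The highest levels with TGFβ were in ΔHD2/- lines 2 and 3, at 229 and 286 CPM from 5.00 and 3.31 CPM, and line 1 went from 0.568 to 15.4 CPM. The mean log2 fold change was 2.90 ± 0.85 (SE, adjusted p 0.0272 by limma). It missed the threshold when any of 6 lines was left out (adjusted p 0.0502 to 0.134) and with ΔHD2/- lines 2 and 3 averaged (adjusted p 0.0719), while with cell line as a block the adjusted p was 3.39e-05.

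Notch4 is known from endothelium, so its level was read beside 5 endothelial markers. Their summed level was 0.257 to 2.07 CPM without and 0.718 to 6.51 CPM with TGFβ. Kdr was at 0.252 CPM or less and Emcn at 0.0915 CPM or less in every untreated and TGFβ library. The 5 markers did not move together. Pecam1 was lower with TGFβ in 9 of 9 lines (median 0.861 CPM without and 0.36 CPM with it), and Tek was higher in 5 and lower in 4. Cdh5, which encodes VE-cadherin, was higher with TGFβ in 9 of 9 lines, at 0.407 CPM or less without and 0.34 to 6.32 CPM with TGFβ. In ΔHD2/- line 3, where Notch4 was at 286 CPM with TGFβ, Pecam1 was at 0.375 CPM, Cdh5 at 0.667 CPM and Kdr at 0.0417 CPM.

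Notch2 and Notch3 were not called. Notch2 was lower in 5 lines and higher in 4 with TGFβ, within 0.649-fold to 1.18-fold of the untreated level, and its mean log2 fold change was -0.10 ± 0.19 (SE, adjusted p 0.763 by limma). This value had the opposite sign under median-of-ratios scaling (0.07) and with edgeR (0.05), and lay near the all-gene median. Notch3 was lower in 7 lines and higher in ΔHD2/- lines 2 and 3, from 0.0297 to 55.7 CPM without and from 0 to 12.1 CPM with TGFβ. Its mean log2 fold change was -1.21 ± 0.68 (SE, adjusted p 0.236 by limma), and with cell line as a block it was called (SE 0.40, adjusted p 0.0249). That blocked call was lost when either ΔHD1/fl line, ΔHD1/- line 1, either ΔHD2/fl line or ΔHD2/- line 1 was left out. Without ΔHD2/- line 1 the log2 fold change was under the limit of 1 in size. The pericyte and smooth muscle markers, the list nearest to where Notch3 is known, summed to 0 to 763 CPM without and 0.25 to 566 CPM with TGFβ, of which Pdgfrb made up 762 and 565 CPM at the upper ends, and Rgs5 was at 0.21 CPM or less. Their part in the Notch3 values was not tested.

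The make-up of the receptors differed between treatments. As a share of the 4 receptors' summed CPM per kb, Notch1 made up a median 48.8% without cytokine and 19.1% with TGFβ. Notch2 made up 46.4% and 72.6%, and Notch3 0.963% and 0.386%. Notch4 made up a median 0.301% without and 7.68% with TGFβ, and reached 34.9% and 41.8% in ΔHD2/- lines 2 and 3. Shares of a sum move together, so a lower share of one receptor raises those of the rest. The summed receptor level itself had a median of 76.2 CPM per kb without cytokine and 48.0 CPM per kb with TGFβ. In ΔHD2/- lines 2 and 3 it was instead higher with TGFβ, at 99.4 and 104 CPM per kb against 76.2 and 78.8 CPM per kb.

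**Figure D3:**
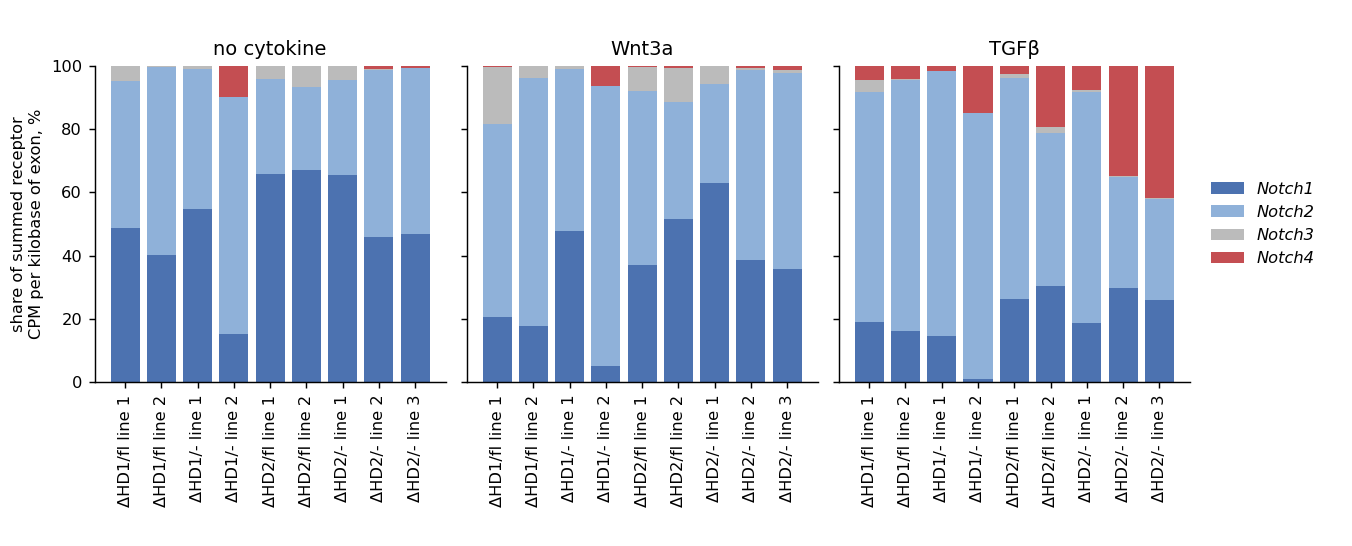
Share of each Notch receptor in the summed receptor level (CPM per kilobase of exon, %) in each of the 27 libraries, 1 panel per treatment and 1 bar per cell line. With TGFβ the Notch1 share lies between 1.14% and 30.5%, against 15.2% to 66.9% without cytokine, and Notch4 is largest in ΔHD2/- lines 2 and 3.

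Jag2 followed another course than Jag1. With TGFβ it was lower in 6 lines and higher in 3, with the largest differences in ΔHD2/fl lines, from 83.5 and 178 CPM to 6.61 and 46.4 CPM. In ΔHD1/fl lines it went from 4.99 and 44.3 CPM to 3.11 and 18.2 CPM, and in ΔHD1/- lines from 2.05 and 0.237 CPM to 4.25 and 0.288 CPM. In ΔHD2/- lines it went from 19.8, 3.15 and 3.01 CPM to 4.39, 2.55 and 4.04 CPM. The mean log2 fold change of -0.94 ± 0.61 (SE, adjusted p 0.308 by limma) was not called. Jag1 made up 92.8% to 99.9% of the Jagged sum with TGFβ.

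Among the targets, Hey1 fell, Hes1 and Nrarp were not called, and Heyl did not pass the filter and was not tested. In ΔHD1/fl lines Hey1 went from 24.7 and 5.03 CPM to 1.09 and 1.21 CPM with TGFβ, and in ΔHD1/- lines from 2.82 and 2.40 CPM to 0.715 and 0.936 CPM. In ΔHD2/fl lines it went from 106 and 22.6 CPM to 1.29 and 1.46 CPM. In ΔHD2/- line 1 it went from 22.7 to 0.454 CPM, and in lines 2 and 3, where it was near the limit of detection, it was at 0.135 and 0.209 CPM without and 0.296 and 0.334 CPM with TGFβ. It was lower in 7 of the 7 lines where it could be measured, by up to 82.6-fold with a median of 9.84-fold. The mean log2 fold change was -2.29 ± 0.56 (SE, adjusted p 0.0103 by limma), and the call was lost when line 1 of ΔHD1/fl or of ΔHD2/fl was left out (adjusted p 0.0587 and 0.0637).

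Hes1 was at 6.03 to 73.1 CPM without and 15.4 to 62.3 CPM with TGFβ. It was higher in 8 of 9 lines, from 28.3 and 21.2 CPM to 35.3 and 30.4 CPM in ΔHD1/fl and from 40.7 and 40.1 CPM to 61.2 and 62.3 CPM in ΔHD2/- lines 2 and 3. In ΔHD2/fl line 1 and ΔHD2/- line 1 the rise was within counting error. It was 1.04-fold and 1.07-fold there (exact 95% intervals of the ratio of reads 0.954 to 1.14 and 0.981 to 1.17). In ΔHD2/fl line 2 it was lower, at 33.0 CPM from 73.1 CPM. Hes1 had a mean log2 fold change of 0.28 ± 0.26 (SE, adjusted p 0.504 by limma). Nrarp was higher in 5 lines and lower in 4, from a 15.0-fold lower to an 8.95-fold higher level. Of the 8 lines where it could be measured, 4 were higher and 4 lower. The 8.95-fold value, in ΔHD1/fl line 2, rests on 5 reads without and 47 with TGFβ. It was lower in ΔHD1/fl line 1 (17.4 to 3.32 CPM), both ΔHD2/fl lines (8.58 to 5.06 and 13.8 to 0.923 CPM) and ΔHD2/- line 1 (39.3 to 17.9 CPM), all lines with much Nrarp before. It was higher in ΔHD1/- line 1 (8.38 to 23.8 CPM) and in the 4 lines that were low before, where it stayed at 3.75 CPM or less. Its mean log2 fold change was -0.21 ± 0.91 (SE, adjusted p 0.902 by limma).

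**Figure D4:**
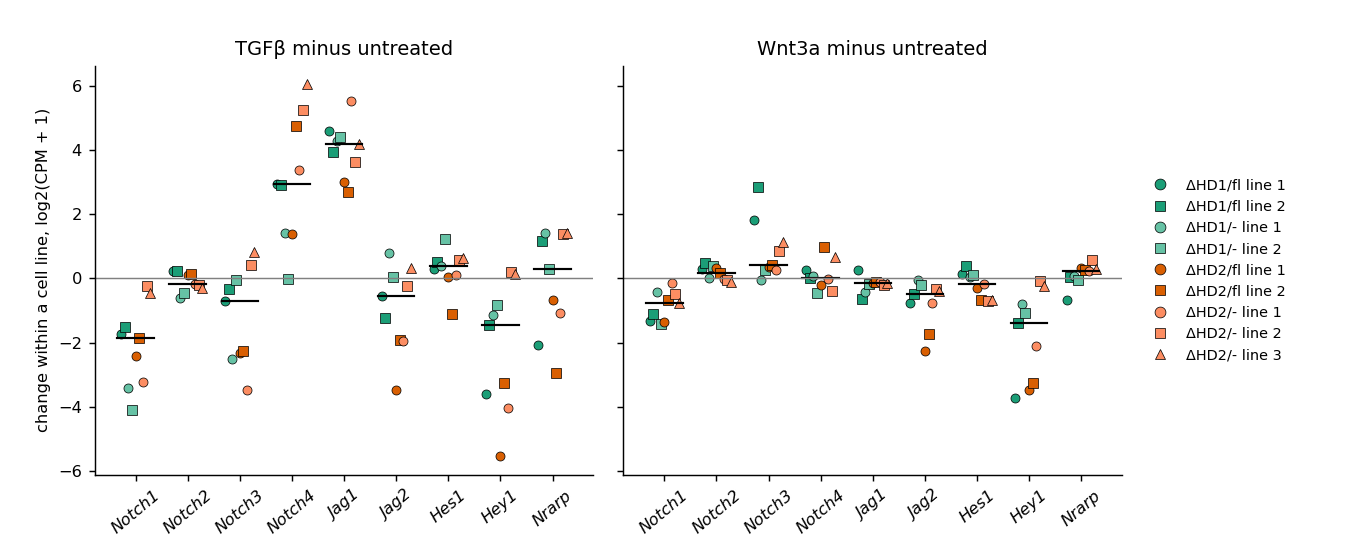
Change of each gene within each cell line on the log2(CPM + 1) scale, TGFβ minus untreated on the left and Wnt3a minus untreated on the right. Points are the 9 lines, bars are medians, and both panels share the untreated libraries. With TGFβ Jag1 spans 2.7 to 5.54 and Notch1 -4.11 to -0.23, and with Wnt3a the median changes lie between -1.38 (Hey1) and 0.42 (Notch3).

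Within single genotypes no member passed the test for TGFβ without a block. None of the 32 tests (8 members in 4 genotypes) was called by limma and 6 had an unadjusted p under 0.05, and edgeR called 0 and had 5. All genes tested were called in 0.211% (ΔHD1/fl), 1.43% (ΔHD1/- lines), 0.286% (ΔHD2/fl) and 0.806% (ΔHD2/- lines) of cases. With cell line as a block 7 of the 32 were called, and the background was 5.42%, 9.33%, 5.24% and 6.03% in the same order (8.92% for the mean response). These were Notch1 in ΔHD1/- (-3.77 ± 0.63, adjusted p 0.00182) and ΔHD2/fl (-2.13 ± 0.63, adjusted p 0.0482), and Hey1 (-4.41 ± 0.87, adjusted p 0.00968) and Jag2 (-2.69 ± 0.48, adjusted p 0.00579) in ΔHD2/fl. Notch4 was called in ΔHD1/fl (2.93 ± 0.70, adjusted p 0.0224), ΔHD2/fl (3.06 ± 0.70, adjusted p 0.0191) and ΔHD2/- (4.90 ± 0.57, adjusted p 0.000239). Notch1 in ΔHD2/fl was not called with the block under median-of-ratios scaling (adjusted p 0.065) or edgeR (adjusted p 0.0658), under which Hes1 in ΔHD1/- lines was called (1.05, adjusted p 0.0252, and 1.11, adjusted p 0.0281). With the lines low in Cdh1 left out, the calls made were Hey1, Jag2 and Notch4 in ΔHD2/fl and Notch4 in ΔHD2/- lines. That fit left 1 line in each ΔHD1 group and called a larger share of all genes in ΔHD2/fl and ΔHD2/- lines.

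None of the 16 tests of a different TGFβ response in recombined and fl lines was called (limma, 0 with an unadjusted p under 0.05, edgeR the same). Over all genes 0.00754% were called in ΔHD1 and 0.0301% in ΔHD2 lines. With cell line as a block 8 had an unadjusted p under 0.05 and 0 were called. A call in one genotype and not in another is therefore not shown to be a difference between them.

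Wnt3a gave no call among the 9 members tested. The comparison shares its untreated libraries with that of TGFβ. Over all genes 0.0226% were called for the mean response, 1 of the members had an unadjusted p under 0.05 (Hey1), and edgeR likewise called 0 with 1 under 0.05. With cell line as a block 5 members had an unadjusted p under 0.05 and 0 were called, against 0.241% of all genes.

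Hey1 was lower with Wnt3a in 9 of 9 lines, including 7 of 7 where it could be measured, by 2.37-fold to 26.0-fold with a median of 5.04-fold. In ΔHD1/fl lines it was at 0.951 and 1.31 CPM with Wnt3a against 24.7 and 5.03 CPM without, and in ΔHD2/fl lines at 8.62 and 1.47 CPM against 106 and 22.6 CPM. In ΔHD2/- line 1 it was at 4.51 CPM against 22.7 CPM. Its mean log2 fold change was -1.92 ± 0.56 (SE, adjusted p 0.616 by limma), with an adjusted p of 0.0568 with cell line as a block and of 0.0212 with cell line as a random effect. Of all genes tested 3.22% were lower with Wnt3a in every line and 1.73% higher.

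Notch1 and Jag2 were also lower with Wnt3a in 9 of 9 lines, for Jag2 8 of the 8 lines where it could be measured. Notch1 had a median difference of 1.71-fold (range 1.1-fold to 2.7-fold), from 106 to 688 CPM without and from 39.2 to 468 CPM with Wnt3a (log2 fold change -0.90 ± 0.46, SE, adjusted p 1.0 by limma). Jag2 had a median difference of 1.61-fold and was most different in ΔHD2/fl lines, at 16.6 and 52.8 CPM against 83.5 and 178 CPM (log2 fold change -0.81 ± 0.61, SE, adjusted p 1.0 by limma). Notch3 was higher in 8 of 9 lines, most in ΔHD1/fl lines, at 75.5 and 17.3 CPM against 20.6 and 1.53 CPM (log2 fold change 0.90 ± 0.68, SE). Jag1 differed little, at 9.73 to 223 CPM with and 11.9 to 243 CPM without Wnt3a, lower in 8 of 9 lines by at most 1.62-fold (log2 fold change -0.20 ± 0.32, SE). Notch2, Notch4, Hes1 and Nrarp had mean log2 fold changes of 0.19, 0.10, -0.17 and 0.09.

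By genotype, 0 of 36 tests of the Wnt3a response were called by limma, with 2 under an unadjusted p of 0.05 (Hey1 in ΔHD1/fl and in ΔHD2/fl), and edgeR called 0 with 0 under 0.05. All genes were called in 0.0151% (ΔHD1/fl), 0.00754% (ΔHD1/- lines), 0.113% (ΔHD2/fl) and 0.00754% (ΔHD2/- lines) of cases. None of the 18 tests of a different Wnt3a response in recombined and fl lines was called by limma or edgeR, with 0 under 0.05 in both, against 0% of all genes in ΔHD1 and 0.0151% in ΔHD2 lines.

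Between recombined and fl lines, Jag1 in the ΔHD2 family gave the single call among 54 tests, in which 8 had an unadjusted p under 0.05, and edgeR called 0 with 7 under 0.05. With Wnt3a, Jag1 was lower in ΔHD2/- lines, at 29.7, 21.0 and 19.8 CPM (23.5 ± 5.42, SD, n = 3), than in ΔHD2/fl lines, at 115 and 223 CPM (169 ± 76.0, SD, n = 2). The log2 fold change was -2.74 ± 0.60 (SE, adjusted p 0.0429 by limma), and 0.686% of all genes were called in that comparison. Without cytokine the levels were 26.3 ± 5.24 CPM (SD, n = 3) and 186 ± 80.6 CPM (SD, n = 2), with a log2 fold change of -2.72 ± 0.60 (SE, adjusted p 0.0515 by limma), which was not called, against 0.55% of all genes. With TGFβ the groups overlapped, at 759 ± 680 CPM (SD, n = 3) and 1310 ± 373 CPM (SD, n = 2), with a log2 fold change of -1.13 ± 0.60 (SE). Jag1 was picked on its TGFβ libraries, so this value is a description, although the 54 tests include it. In that comparison 0.354% of all genes were called.

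The Jag1 call was lost with edgeR (adjusted p 0.183), with ΔHD2/- lines 2 and 3 averaged (adjusted p 0.28), and when either ΔHD2/fl line or ΔHD2/- line 2 or 3 was left out (adjusted p 0.116 to 0.487). Some basal markers differed in the same direction. Without cytokine Krt14 was at 6790 and 8750 CPM in ΔHD2/fl lines and at 1000, 1450 and 1210 CPM in ΔHD2/- lines, and Oxtr was at 67.3 and 48.0 CPM in the former against 4.72, 0.045 and 0 CPM in the latter. With Wnt3a ΔHD2/fl lines held Krt14 at 7840 and 9420 CPM and ΔHD2/- lines at 814, 2640 and 3100 CPM. Of the 5 basal markers Trp63 overlapped between the groups without cytokine (30.9 and 82.8 CPM in ΔHD2/fl, 46.8 CPM in ΔHD2/- line 1), and with Wnt3a both Trp63 (15.4 and 20.9 against 17.4 CPM in line 1) and Krt5 (124 CPM in ΔHD2/fl line 1 against 749 and 796 CPM in ΔHD2/- lines 2 and 3) overlapped. The part of these markers in the Jag1 values was not tested. Removal of the floxed allele and differences between tumours cannot be told apart with 2 and 3 lines. Untreated Hey1 and Jag2 had log2 fold changes of -3.98 ± 1.07 (SE, adjusted p 0.154 by limma) and -4.13 ± 1.17 (SE, adjusted p 0.188 by limma) between ΔHD2/- and ΔHD2/fl lines, and neither was called. The groups overlapped for Hey1, which was at 22.7 CPM in ΔHD2/- line 1 and 22.6 CPM in ΔHD2/fl line 2, and its low values were those of the closely alike ΔHD2/- lines 2 and 3. Without ΔHD2/- line 1 untreated Hey1 (adjusted p 0.000277), Jag2 (adjusted p 0.0272) and Jag1 (adjusted p 0.00561) were called, where 5.67% of all genes were called against 0.55% with that line. In the ΔHD1 family no member was called, against 0.0678% of all genes without cytokine, 0.0452% with Wnt3a and 0.0301% with TGFβ. Without ΔHD1/- line 1, which left 1 line low in Cdh1 in that group, Hes1 was called lower without cytokine (adjusted p 0.0242) and with Wnt3a (adjusted p 0.0141), where 0.871% and 0.825% of all genes were called.

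Other parts of the pathway were read from a list of 47 genes in 7 groups, of which 38 passed the filter. With TGFβ 2 were called higher and 2 lower, which is 10.5% of the 38 against 5.42% of all genes tested, and the median log2 fold change of the list was -0.12 against -0.16 over all genes. Furin, which encodes the protease that cleaves Notch precursors, rose in 9 of 9 lines, from a median of 277 to 525 CPM (1.19 ± 0.16, SE, adjusted p 0.000163 by limma). Dtx4, a Deltex E3 ligase that acts on receptor traffic, rose in 9 of 9 lines, from a median of 48.3 to 138 CPM (1.23 ± 0.26, SE, adjusted p 0.00419 by limma). Neurl1b, a ubiquitin ligase for endocytosis of ligands, fell in 9 of 9 lines, from a median of 18.3 to 2.82 CPM (-2.08 ± 0.69, SE, adjusted p 0.0484 by limma). Dlk2, an atypical ligand, fell in 9 of 9 lines, from a median of 4.44 to 0.42 CPM (-1.99 ± 0.62, SE, adjusted p 0.0359 by limma).

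The 4 calls fell in 4 of the 7 groups. Of the Delta and atypical ligands 2 of 5 were tested and Dll1, the other one tested, had a log2 fold change of -0.34 ± 0.90 (SE). Of 10 genes for receptor cleavage only Furin was called, and Adam17, a sheddase, had a value of -0.57 ± 0.11 (SE, adjusted p 0.00288 by limma), below the fold limit. Of 4 tested genes for receptor glycosylation 0 were called, with Rfng at -0.80 ± 0.16 (SE, adjusted p 0.00318 by limma) and Lfng at -0.42 ± 0.17 (SE). Of 4 genes for ligand endocytosis Neurl1b was called, and Mib2 was at -0.33 ± 0.12 (SE). Of 7 genes of the nuclear complex 0 were called, with Kat2b at -0.68 ± 0.23 (SE) and Maml3 at -0.50 ± 0.21 (SE), and Rbpj, the DNA-binding partner of all 4 receptors, at 0.06 ± 0.17 (SE). Among corepressors and genes of receptor turnover Dtx4 was called, and Fbxw7, a subunit of a ubiquitin ligase that marks the Notch intracellular domain for degradation, was at 0.65 ± 0.18 (SE, adjusted p 0.0205 by limma). Of the other targets 2 of 6 were tested, Hes6 at 0.08 ± 0.16 (SE) and Hey2, which passed the filter through TGFβ libraries alone and is given by its levels, at 0.684 CPM or less without and 0.0417 to 3.53 CPM with TGFβ. With Wnt3a 0 of the 38 were called by limma, with 0 under an unadjusted p of 0.05, and by edgeR, with 3, and the median log2 fold change was -0.06.

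**Figure D5:**
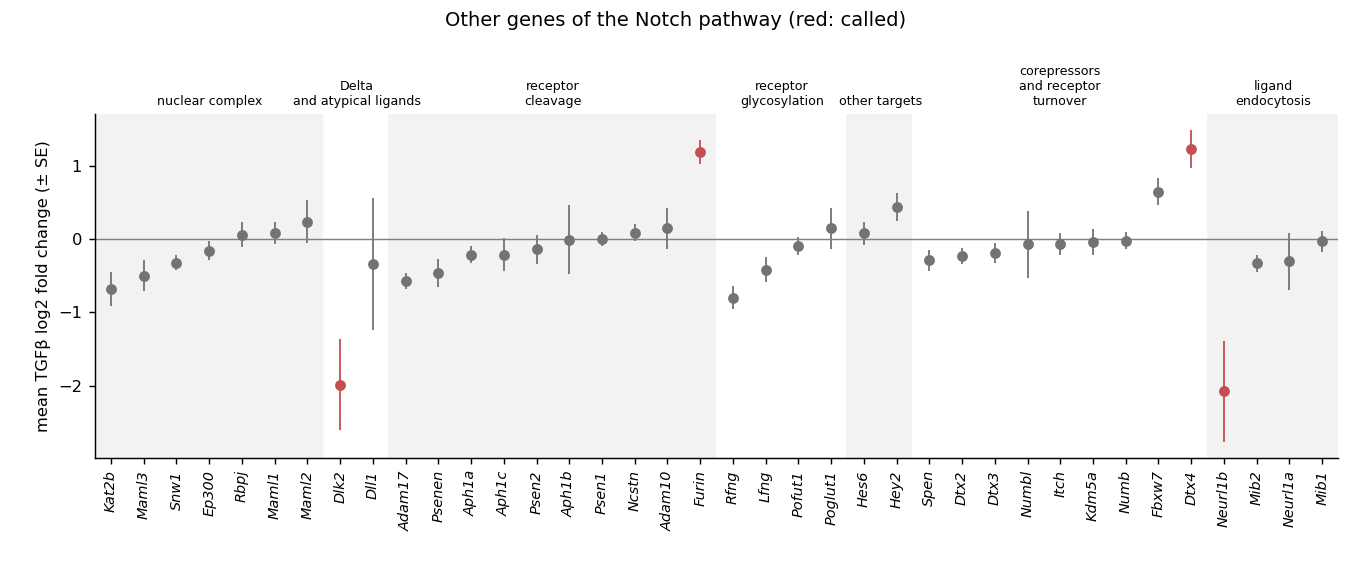
Mean log2 fold change with TGFβ (± SE, log2(CPM + 1) scale, limma) of the 38 other Notch pathway genes that passed the filter, arranged by role. Red points mark the 4 called genes, Furin and Dtx4 higher and Dlk2 and Neurl1b lower, and the other points lie between -0.80 and 0.65.

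The genes whose levels were most like those of the members over the 27 libraries, by Pearson r of log2(CPM + 1) among genes tested, are given as a description, since the libraries share cell lines and treatments. For Jag1 they were Ctsf (r 0.92), Clu (0.916), Ucn2 (0.895), Mir711 (0.893) and Las1l (0.892). For the receptors they were Unk for Notch1 (0.919), Pi4kb for Notch2 (0.863), A130010J15Rik for Notch3 (0.874) and Lrig3 for Notch4 (0.888). They were P2ry1 for Jag2 (0.901), Rnf130 for Hes1 (0.87), Ntng1 for Hey1 (0.849) and Egfl7 for Nrarp (0.885).

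The members lie on 6 chromosomes of GRCm38. Notch1 (chromosome 2, 26457902 to 26503822), Jag1 (chromosome 2, 137081451 to 137116520) and Nrarp (chromosome 2, 25180758 to 25183339) share chromosome 2, and Notch3 (32120820 to 32166896) and Notch4 (34564286 to 34588543) share chromosome 17. Notch2 (98013538 to 98150367) and Hey1 (8663359 to 8667038) are on chromosome 3. Jag2 is on chromosome 12 (112907803 to 112929812), Hes1 on chromosome 16 (30065357 to 30067796) and Heyl on chromosome 4 (123233556 to 123249870). Reads were counted over exons of the whole gene, so isoforms are not separated. Exons of Notch2, Notch3 and Nrarp overlap those of Gm42820, Gm17276 and Gm38287, and how their reads were shared was not tested.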

How the data were processed

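RNA was measured by RNA-sequencing in 27 libraries of mouse mammary tumour cell lines. The authors made stranded libraries of mRNA, mapped the reads with STAR (mm10, unique hits only) and counted them over RefSeq exons with QuasR. The deposited table held CPM values that the authors computed from those counts, with no other scaling, for 24454 Entrez identifiers, of which 24374 matched a symbol. In all libraries 100% of values were whole multiples of 1 read (tolerance 0.05 reads), so reads could be recovered. Depth was 21.86 to 33.69 M reads, and intervals and floors cover counting error only.

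Genes that reached 1 CPM in 2 or more libraries (13270) were fitted as log2(CPM + 1) in R 4.3.3 by limma 3.58.1 (trend and robust settings, 12 group means, no block). The call rule was a Benjamini-Hochberg adjusted p no higher than 0.05 together with a log2 fold change of 1 or more in size. Fold changes on this scale understate the change of low genes. A change within a line was taken as measurable where at least 1 of its 2 libraries held 1 CPM or more. The fits were tested on simulated counts. Figures and summaries used Python 3.11.15.

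A replicate number within a genotype stood for 1 cell line, as the labels give it. Libraries of 1 line deviated together from their group means (correlation 0.509 to 0.94), so the numbers pair the treatments, and a fit with cell line as a block was an alternative. The labels do not say that these numbers pair a recombined line with a fl line. The others were median-of-ratios scaling, a random effect of cell line (statmod 1.5.0), no filter, no fold limit, a pseudocount of 0.1, edgeR 4.0.16 on recovered reads, averaging ΔHD2/- lines 2 and 3, and each line left out (a lone line remaining in a group was assumed to vary like the rest). Median-of-ratios scaling with the block, the block with each line left out, and leaving out the lines low in Cdh1 and Epcam were chosen after seeing the data.

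The members and lists were chosen with earlier results of these data known. The text names all 10 members, the listed pathway genes called or among the 2 of largest TGFβ change in their group, and the genes most like each member. Rbpj and the markers named singly lie outside this rule and were chosen after their values were seen. One gene of the pathway list and a second check of TGFβ are not reported here. Gene positions are from RefSeq (GRCm38), and strands, exon lengths and overlaps are from GENCODE M21. Promoters are from RefSeq GRCm38.p6.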

Additional observations from a re-analysis of the deposited data

Results flagged for a closer look

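In some pairs of genotypes every line of one moved one way and every line of the other the opposite way. These differences were not tested, and each rests on 2 or 3 lines per genotype, of which ΔHD1/fl line 2 and ΔHD1/- line 2 were low in Cdh1, and ΔHD2/- lines 2 and 3 were much alike. Values are mean changes on the log2(CPM + 1) scale.

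Notch2 with TGFβ was higher in both ΔHD1/fl lines (mean 0.23) and lower in the 3 ΔHD2/- lines (mean -0.23), a difference of 0.46. After median-of-ratios scaling it was higher in 1 of the 3 ΔHD2/- lines, so this pattern was lost. It was lower in both ΔHD1/- lines (mean -0.54) and higher in both ΔHD2/fl lines (mean 0.12), a difference of -0.66. With Wnt3a Notch2 was higher in ΔHD1/fl (mean 0.38) and lower in ΔHD2/- lines (mean -0.06), a difference of 0.44. After median-of-ratios scaling it was higher in 2 of the 3 ΔHD2/- lines, and this pattern too was lost. The other patterns given here were also seen after that scaling. In ΔHD2/- line 1 the change of Notch2 with Wnt3a, at 0.989-fold, was within counting error (exact 95% interval of the ratio of reads).

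Hes1 with Wnt3a was higher in all ΔHD1 lines (mean 0.26 in ΔHD1/fl and 0.08 in ΔHD1/-) and lower in all ΔHD2 lines (mean -0.49 in ΔHD2/fl and -0.53 in ΔHD2/-). The differences were 0.76 for ΔHD1/fl against ΔHD2/fl and 0.79 against ΔHD2/-. In both ΔHD1/- lines the change was within counting error, at 1.04-fold (exact 95% interval 0.928 to 1.16) and 1.08-fold (0.874 to 1.34), so the sign there is not settled. The differences were 0.56 for ΔHD1/- against ΔHD2/fl and 0.60 against ΔHD2/-.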

How the results depend on the processing

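For the mean TGFβ response 3 members were called, 2 with ΔHD2/- lines 2 and 3 averaged, and 4 with cell line as a replicate block (Notch3 added), with edgeR 3, or 4 with the replicate block. Leaving out 1 line, without or with the block, gave 1 to 5. It was 1 (Notch1) without ΔHD1/fl line 1 or ΔHD2/fl line 1, and 5 with the block without ΔHD2/- line 3. The mean Wnt3a response gave 0, but 1 (Hey1) with cell line as a random effect. Leaving out 1 line gave 0 to 1, with 1 under the block without ΔHD1/fl line 2 or ΔHD2/- line 1.

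By genotype, the 0 calls for TGFβ became 7 with the replicate block, with a random effect, with edgeR and the block, and with median-of-ratios scaling and the block. The last 2 had Hes1 in ΔHD1/- in place of Notch1 in ΔHD2/fl. They became 4 with the block and the lines low in Cdh1 left out. Leaving out 1 line gave 0 to 10, of which 10 came under the block without ΔHD2/- line 1, which left lines 2 and 3 alone in their group. The share of all genes called in that blocked fit is not given here. Without a block, 247 of 13200 genes were called for TGFβ in ΔHD2/- lines when line 1 was left out. With line 1 the count was 107 of 13270. The block without that line also gave the highest counts for Wnt3a by genotype (range 0 to 2) and for the difference of responses (range 0 to 3). Beyond these, and leaving aside Hey2, which reached 1 CPM in TGFβ libraries alone, the mean responses of the members and listed genes gave the same calls under limma or edgeR with and without the block.

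Between recombined and fl lines 1 member was called. The count was 2 with no filter, a random effect, or the lines low in Cdh1 left out, and 0 with a pseudocount of 0.1, median-of-ratios scaling, edgeR, or ΔHD2/- lines 2 and 3 averaged. Leaving out 1 line gave 0 to 4, with 4 without ΔHD1/- line 1 or ΔHD2/- line 1, 2 without ΔHD1/- line 2, and 0 without either ΔHD2/fl line or ΔHD2/- line 2 or 3. No paired analysis of this comparison was made because the labels pair no recombined line with a fl line. By the paper, recombined lines were made by infecting floxed cells. Some may therefore share a parent with a fl line, which was not tested.

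Some log2 fold changes that were not called changed sign. For TGFβ these were Notch2 (0.07 with median-of-ratios scaling, without or with the block, and 0.05 with edgeR, without or with the block) and Nrarp (0.03 with a pseudocount of 0.1, 0.38 with edgeR and the block, and -0.62 to 0.19 with 1 line left out). For Wnt3a they were Notch4 (-0.04 to 0.25 with 1 line left out) and Nrarp (0.00 to 0.17). The cause was not tested. Each genotype had 2 or 3 lines, and how far the spread between lines limited the calls was not tested. Heyl in all lines, and Hey1 in ΔHD2/- lines 2 and 3, lay near the limit of detection at this depth.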
